A study of Mus musculus with 4 samples.

Results

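The genes described here mark 2-cell-like cells, the few cells of a mouse embryonic stem cell culture in which transcripts of the 2-cell embryo appear, or belong to the Pramel family, a large set of copied genes that are active in germ cells and in the early embryo. They were chosen by name in the deposited table: every gene name that begins with Zscan4, Usp17l or Tcstv, every numbered Pramel, Pramef or Tdpoz gene, and 8 single names. The rule found 79 of 52327 gene names, of which 48 were Pramel genes, 10 Tdpoz, 9 Zscan4, 6 Usp17l and 2 Tcstv. Of the 8 single names, Zfp352, Duxf3, Tmem92 and Sp110 were found and the other 4 matched no gene name in the table. No numbered Pramef name was found either.

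RNA sequencing compared 2 groups of cells of the mouse line 46C, an embryonic stem cell line known for a green fluorescent reporter at the Sox1 gene. The first group, rfISCs, was grown in PIF medium and is described as a stem cell state between the rosette and the formative stage. The second group, ESCs, was grown in 2i medium, in which inhibitors of MEK and GSK3 keep cells naive, and was the control. Each group had 2 libraries, all from 1 cell line, and the labels name no allele or transgene that differs between the groups. Nothing in the labels says whether the libraries of a group were separate cultures, so the spread that the p-values rest on may be technical.

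In the mouse, the double-homeobox factor DUX, encoded by Duxf3, is known to switch on a set of genes of the 2-cell embryo that includes Zscan4, Usp17l, Tdpoz, Tcstv, Zfp352 and Tmem92. ZSCAN4 proteins carry a SCAN domain and zinc fingers and are known for their role in telomere maintenance in embryonic stem cells. PRAME family proteins are built of leucine-rich repeats, and some are known as substrate adaptors of ubiquitin ligases that contain CUL2. PRAMEL7 is known in naive mouse stem cells for promoting the loss of UHRF1, the protein that recruits the maintenance DNA methyltransferase DNMT1.

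Total counts in named genes were 21227219 and 23491513 in the rfISCs libraries and 18940239 and 21169051 in the ESCs libraries. Levels are given as CPM, the count scaled to the TMM-corrected library size, where 1 gene is compared between libraries, and as the authors' TPM, which corrects for transcript length, where genes are compared with each other. Intervals and floors for low counts take in counting error only. The smallest two-sided p that an exact permutation test can give with 2 libraries in each group is 0.333, so calls rest on edgeR's quasi-likelihood test across all 16355 genes that passed its filter, at a Benjamini-Hochberg adjusted p under 0.05.

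The members together were lower in rfISCs. Their summed level was 61.95 and 70.43 CPM in the rfISCs libraries, against 230.3 and 245.6 CPM in the ESCs libraries, which is 3.60-fold lower on the means of 66.2 ± 5.996 and 237.9 ± 10.85 CPM (SD, n = 2 each). Of the 79 members, 27 passed the filter on low counts, and of these 24 fell, 0 rose and 3 did not pass the test. Among all genes tested, 26.4% were called lower and 27.3% higher, or 53.7% in either direction. No member was higher at an unadjusted p under 0.05, and DESeq2 and limma on TPM also called 0 members higher. The median log2 fold change of the 27 tested members was -3.76, against 0.00 over all genes tested, and it stays at -3.76 when Pramel36, Pramel37 and Pramel50, at 0 rounded counts in rfISCs, are set to their lower bounds. However, 20 of the 27 reached the filter's level in ESCs alone, so those 20 could only have been found lower, and the count and the median are a description of the tested members. Many members are copies that share sequence and may share reads, so the 27 are not independent of each other. In bulk RNA, fewer cells that express a gene and less of its RNA per cell cannot be told apart.

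The other 52 members were not tested. Of these, 22 had no count in any library, 18 had fewer than 10 counts over the 4 libraries, and 12 had 10 or more. By the estimated counts before rounding, 14 of the 79 members had counts in ESCs and none in rfISCs, and 3 had counts in rfISCs and none in ESCs. The 3 were Pramel39, Pramel43 and Pramel49, each with a fraction of 1 estimated count, and were named after their values were seen. The same tally was not made over all genes, so the 14 and the 3 only describe the members.

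**Figure D1:**
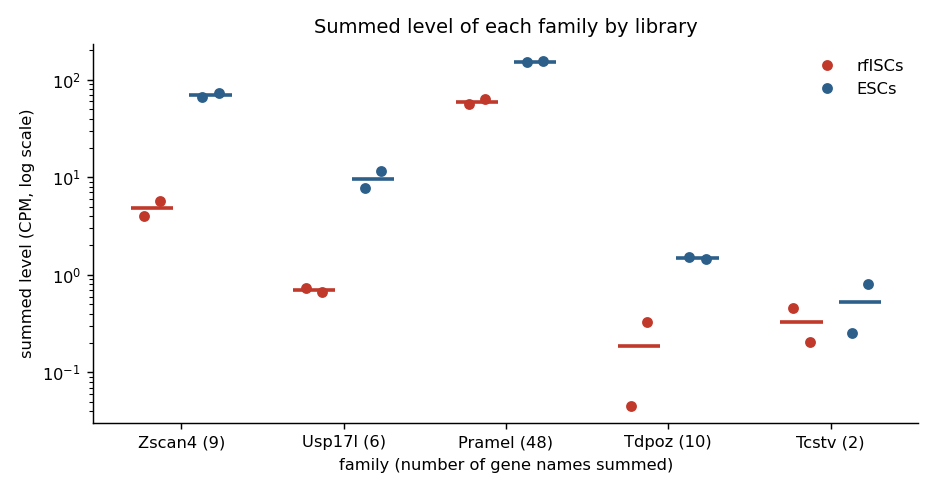
Summed level of each family in CPM on a log scale, with the number of gene names summed in brackets. Points are single libraries, rfISCs left of ESCs, and bars are group means. The Zscan4, Usp17l, Pramel and Tdpoz sums lie lower in both rfISCs libraries than in both ESCs libraries, while the 2 groups overlap for Tcstv.

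Zscan4 RNA was scarce in rfISCs. The 9 genes of the family summed to 4.05 and 5.72 CPM in the rfISCs libraries and to 65.8 and 74.0 CPM in the ESCs libraries. The groups did not overlap, and the mean was 14.3-fold lower in rfISCs (4.88 ± 1.18 CPM, against 69.9 ± 5.80 CPM in ESCs; SD, n = 2 each). On the authors' TPM scale the sums were 3.81 ± 0.410 in rfISCs and 46.3 ± 0.325 in ESCs.

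The Zscan4 genes are tandem copies on chromosome 7, and the promoters of the 4 copies compared here are nearly alike. The 100 bases around the TATAAA hexamer in front of these 4 copies are printed to show how alike their upstream sequences are. The promoters of the other copies were not compared. They are taken from RefSeq on build GRCm38.p6, end before the annotated start and have the hexamer in capitals.
Zscan4b, chr7:10905052-10905151, minus strand: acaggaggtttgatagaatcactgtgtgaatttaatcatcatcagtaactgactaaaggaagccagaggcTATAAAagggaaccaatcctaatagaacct
Zscan4c, chr7:11005621-11005720, plus strand: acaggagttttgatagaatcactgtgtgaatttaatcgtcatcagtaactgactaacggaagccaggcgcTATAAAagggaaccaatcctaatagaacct
Zscan4d, chr7:11166184-11166283, minus strand: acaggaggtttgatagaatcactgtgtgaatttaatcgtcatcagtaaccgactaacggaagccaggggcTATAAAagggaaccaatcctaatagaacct
Zscan4f, chr7:11397814-11397913, plus strand: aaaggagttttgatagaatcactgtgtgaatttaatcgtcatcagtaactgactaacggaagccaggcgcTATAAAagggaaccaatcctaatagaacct
Between any 2 of these, 94 to 99 of 100 bases were identical. The hexamer began 31 bases before the annotated start in Zscan4b and Zscan4f, 54 before it in Zscan4c and 65 before it in Zscan4d.

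Zscan4c is known as the main copy of embryonic stem cells and Zscan4d as that of the 2-cell embryo, and Zscan4f is a close copy of Zscan4c. The 3 together summed to 1.94 and 2.55 CPM in the rfISCs libraries, against 32.8 and 33.5 CPM in the ESCs libraries. The coding sequence had 1521 bases in each of the 3 and differed at 38 of them. A stretch of coding bases 1033 to 1092 is shown, with the 6 bases that vary among the 3 copies in capitals, because sequencing reads from these genes can be told apart only at such bases.
Zscan4c: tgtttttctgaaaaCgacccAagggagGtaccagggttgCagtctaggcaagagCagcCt
Zscan4d: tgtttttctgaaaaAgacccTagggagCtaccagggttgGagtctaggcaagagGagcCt
Zscan4f: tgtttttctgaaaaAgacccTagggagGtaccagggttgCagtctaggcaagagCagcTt
Zscan4f and Zscan4c shared 1515 of 1521 coding bases, while Zscan4d shared 1486 with each.

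All 9 Zscan4 genes passed the filter and all 9 fell, with adjusted p from 6.76e-06 to 0.00148 in edgeR's quasi-likelihood test. Among all tested genes, 26.4% were called lower. Every copy was lower in both rfISCs libraries than in both ESCs libraries, a pattern that 38.7% of all tested genes showed. Zscan4f had 33 and 16 counts in the rfISCs libraries and 236 and 267 counts in the ESCs libraries, a log2 fold change of -3.58 (SE 0.300). Zscan4e had 17 and 30 counts in the rfISCs libraries and 190 and 197 counts in the ESCs libraries, or 9.74-fold lower. These are the 2 copies that reached the filter's level in both groups, and the other 7 could only have been found lower. Since the copies share sequence and may share reads, the 9 calls are not independent.

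Zscan4c was uneven between the rfISCs libraries, with 1 and 29 counts, against 220 and 286 counts in the ESCs libraries. Both were far below either ESCs library, and the log2 fold change was -4.31 (SE 0.548). Zscan4d had 8 and 16 counts in the rfISCs libraries, against 146 and 136 counts in the ESCs libraries, a log2 fold change of -3.79. Zscan4a had 3 and 1 counts in the rfISCs libraries and 103 and 125 counts in the ESCs libraries, which was the largest fitted fall among the 9 genes, at -5.98 on the log2 scale. Zscan4b had 12 and 5 counts in the rfISCs libraries, against 43 and 118 counts in the ESCs libraries, so that here it was the ESCs libraries that were uneven.

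The 3 genes named as pseudogenes of the family fell with the others. The GENCODE M21 annotation gives a transcript of each a coding sequence of 1521 bases and lists none for the Ensembl transcript of Zscan4a. Zscan4-ps2 had 7 and 27 counts in the rfISCs libraries, against 148 and 209 counts in the ESCs libraries, a log2 fold change of -3.63. Zscan4-ps3 had 4 and 13 counts in the rfISCs libraries and 95 and 149 counts in the ESCs libraries, a log2 fold change of -4.06. Zscan4-ps1 had 3 and 0 counts in the rfISCs libraries and 25 and 36 counts in the ESCs libraries, a ratio of 0.0416 with an exact 95% interval of 0.00835 to 0.128. Each of the 9 genes was called lower with any 1 library left out. The size of the fall depended on single rfISCs libraries: without rfISCs replicate 1 and then without rfISCs replicate 2, the log2 fold change was -3.42 and -7.97 for Zscan4c, -6.94 and -5.35 for Zscan4a and -3.02 and -4.81 for Zscan4-ps2. It was -4.27 for Zscan4f without rfISCs replicate 1, -5.04 for Zscan4-ps3 without rfISCs replicate 2, and, for Zscan4b, -4.25 without rfISCs replicate 1 and -2.64 without ESCs replicate 2. The fitted value of Zscan4-ps1 was -4.45 with all libraries, -3.45 without rfISCs replicate 2 and -8.04 without rfISCs replicate 1, where no read was left in rfISCs.

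**Figure D2:**
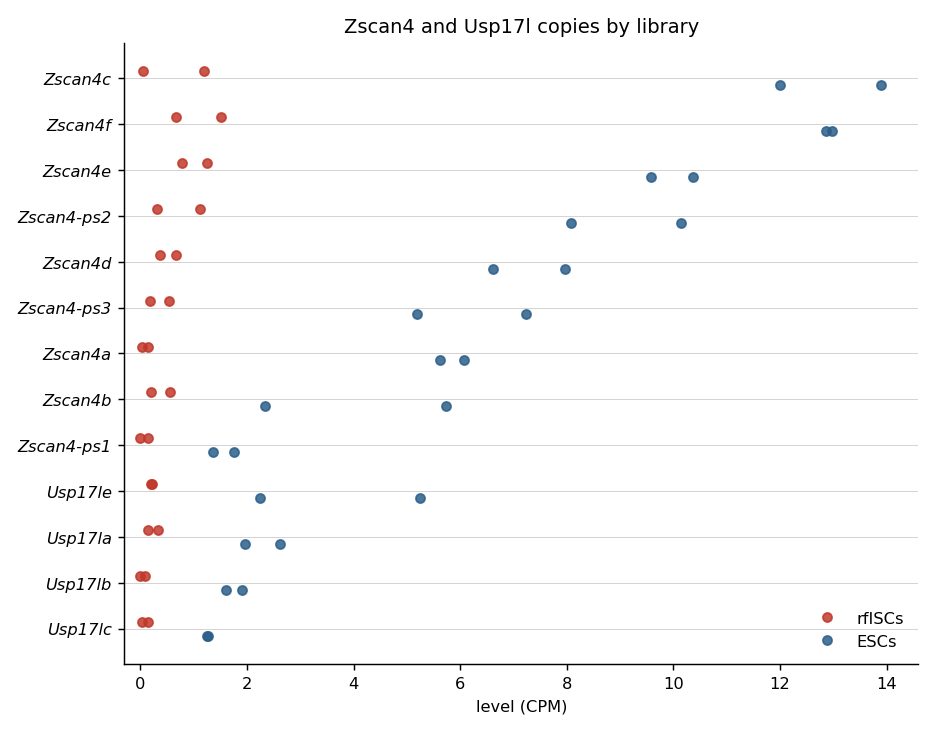
Level of the 9 Zscan4 genes and the 4 tested Usp17l genes in CPM on a linear axis. Points are single libraries, rfISCs above ESCs in each row. In every row both rfISCs points lie left of both ESCs points, and no rfISCs point of any copy exceeds 1.51 CPM.

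The division of Zscan4 reads among copies differed more between the 2 rfISCs libraries, which held few such reads, than between the 2 ESCs libraries. Zscan4f held 37.1% and 11.7% of the family's counts in the rfISCs libraries, against 19.6% and 17.6% in the ESCs libraries. Zscan4c held 1.64% and 21.2% in the rfISCs libraries and 18.2% and 18.8% in the ESCs libraries. The ESCs libraries lay within the range of the rfISCs libraries for both of these copies. The groups did not overlap for Zscan4a, with 3.19% and 0.667% in the rfISCs libraries, against 8.52% and 8.20% in the ESCs libraries. Nor did they for Zscan4e, with 19.0% and 21.9% in the rfISCs libraries and 15.8% and 12.9% in the ESCs libraries. The shares were not tested. The shares in rfISCs rest on 88.6 and 137.9 estimated counts in all, against 1206 and 1523 in ESCs. Of the family's counts, 56.8% and 77.2% in the rfISCs libraries and 69.2% and 70.9% in the ESCs libraries had been given to transcripts that were assembled from reads and carry no Ensembl ID. With Ensembl transcripts alone, 5 copies could be tested, Zscan4a, Zscan4c, Zscan4e, Zscan4f and Zscan4-ps1, and each was called lower, as were 19.4% of all genes in that fit.

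**Figure D3:**
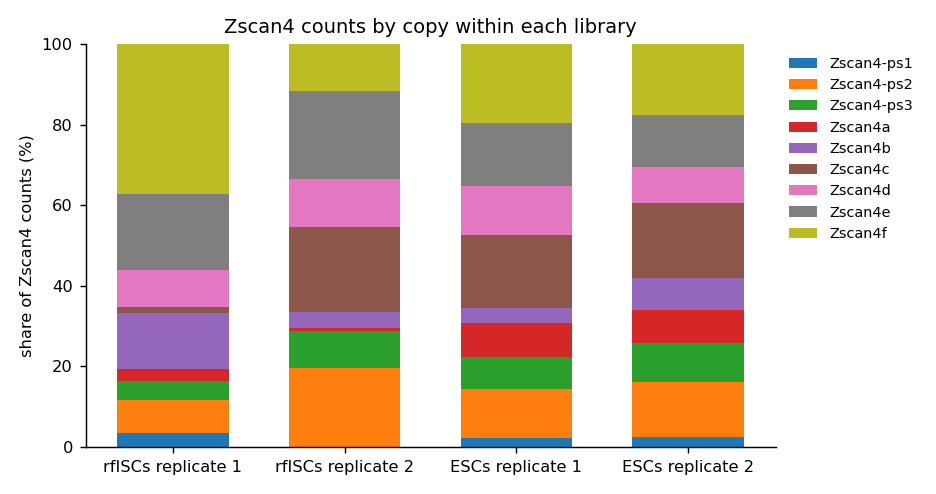
Share of the Zscan4 counts held by each of the 9 genes, in percent, for the 2 rfISCs libraries on the left and the 2 ESCs libraries on the right. The rfISCs libraries differ from each other more than the ESCs libraries do, most of all in Zscan4c (1.64% and 21.2%) and Zscan4f (37.1% and 11.7%).

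The Usp17l genes encode deubiquitinating enzymes, known in mouse blood cells for their induction by cytokines. Their summed level was 0.732 and 0.663 CPM in the rfISCs libraries and 7.69 and 11.7 CPM in the ESCs libraries. The groups did not overlap, and the mean was 13.9-fold lower in rfISCs (0.697 ± 0.0484 CPM, against 9.68 ± 2.81 CPM in ESCs; SD, n = 2 each). On the TPM scale the means were 0.540 in rfISCs and 6.11 in ESCs, below those of Zscan4 in each group.

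Of the 6 Usp17l genes, 4 were tested and all 4 fell, while 26.4% of all tested genes were called lower. All 4 reached the filter's level in ESCs alone, so they could only have been found lower. Usp17le had 5 and 5 counts in the rfISCs libraries, against 41 and 108 counts in the ESCs libraries, a log2 fold change of -4.07 (SE 0.568, adjusted p = 2.76e-04 in edgeR's quasi-likelihood test). All of its ESCs counts were given to 1 assembled transcript, which had 0 counts in both rfISCs libraries. Its rfISCs counts lay on Ensembl transcripts with 0 counts in both ESCs libraries, so its fall rests wholly on the assembled transcript. Of the family's counts, assembled transcripts held 29.4% and 45.0% in the ESCs libraries and 0% in the rfISCs libraries. Usp17la had 3 and 8 counts in the rfISCs libraries and 36 and 54 counts in the ESCs libraries, a log2 fold change of -3.24. Both genes were several-fold below either ESCs library in each rfISCs library. Usp17lc had 3 and 1 counts in the rfISCs libraries, against 23 and 26 counts in the ESCs libraries, a log2 fold change of -3.76. Usp17lb had 2 and 0 counts in the rfISCs libraries and 35 and 33 counts in the ESCs libraries. Usp17ld, which was not tested, had 3 and 2 counts in the rfISCs libraries and 6 and 19 counts in the ESCs libraries, so its groups did not overlap either. All 4 calls held with any 1 library left out. The log2 fold change was -4.01 for Usp17la without rfISCs replicate 2, -3.33 for Usp17le without ESCs replicate 2, and, for Usp17lc, -4.73 without rfISCs replicate 1 and -3.14 without rfISCs replicate 2. For Usp17lb the fitted value was -5.15 with all libraries, -4.17 without rfISCs replicate 2 and -8.21 without rfISCs replicate 1, where no read was left in rfISCs.

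A pair of tested Usp17l genes has a TATAAA hexamer in front of the start, and the sequences around it are printed as for Zscan4 to compare the 2 families.
Usp17lc, chr7:103416538-103416637, plus strand: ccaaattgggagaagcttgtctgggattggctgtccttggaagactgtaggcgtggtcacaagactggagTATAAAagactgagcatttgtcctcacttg
Usp17lb, chr7:104842585-104842684, minus strand: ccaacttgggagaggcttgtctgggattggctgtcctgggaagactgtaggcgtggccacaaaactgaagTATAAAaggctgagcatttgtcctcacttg
The pair was identical at 93 of 100 bases. The hexamer began 88 bases before the annotated start in Usp17lc and 31 before it in Usp17lb. The windows printed for both families were picked from genes called lower, so they say nothing of genes without the hexamer. Usp17la was called lower with no such hexamer in the 250 bases before its start, and the untested Usp17ld has one within its 250 bases.

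Duxf3, the gene of the DUX activator, was listed with few counts. It had 0 and 0 counts in the rfISCs libraries and 9 and 6 counts in the ESCs libraries, at least 5.91-fold lower against a floor of 3 counts over the rfISCs group, and was too low to test. Zfp352, a zinc finger gene known from the 2-cell embryo, had 0 and 0 counts in the rfISCs libraries, against 7 and 7 counts in the ESCs libraries, at least 5.52-fold lower on the same floor. Neither gene had a read in rfISCs, and both had reads in each ESCs library. Tmem92, a gene of a membrane protein used as a marker of 2-cell-like cells, had 11 and 10 counts in the rfISCs libraries and 45 and 37 counts in the ESCs libraries. It fell by 2.20 on the log2 scale, or 4.59-fold (adjusted p = 0.00299, edgeR's quasi-likelihood test), and its groups did not overlap. Sp110, a nuclear body protein gene, had 2 and 6 counts in the rfISCs libraries, against 17 and 8 counts in the ESCs libraries, and was not tested.

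The Tdpoz genes, which encode proteins with a TRAF domain and a POZ domain and are known from oocytes and cleavage embryos, were near the detection limit. Their sum was 0.0457 and 0.332 CPM in the rfISCs libraries and 1.53 and 1.46 CPM in the ESCs libraries, from 1 and 8 estimated counts in rfISCs and 28 and 30 in ESCs. The mean was 7.91-fold lower in rfISCs. Tdpoz3 was the 1 tested member of the 10 and had 0 and 3 counts in the rfISCs libraries and 12 and 11 counts in the ESCs libraries, a ratio of 0.110 with an exact 95% interval of 0.0212 to 0.365. It was called lower (adjusted p = 0.0201, edgeR's quasi-likelihood test), a call that was lost without rfISCs replicate 1 (adjusted p = 0.192). Tdpoz4 had 1 and 1 counts in the rfISCs libraries, against 10 and 2 counts in the ESCs libraries, and Tdpoz8 had 0 and 4 counts in rfISCs and 4 and 10 counts in ESCs. The log2 ratio of the Tdpoz sums was -2.98 with all libraries, -2.17 without rfISCs replicate 1 and -5.03 without rfISCs replicate 2.

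The Tcstv genes, known from the 2-cell embryo, did not separate the groups. Their sum was 0.457 and 0.207 CPM in the rfISCs libraries and 0.251 and 0.798 CPM in the ESCs libraries. Tcstv3 had 10 and 3 counts in the rfISCs libraries and 5 and 11 counts in the ESCs libraries, so the groups overlapped, and neither Tcstv gene was tested. The log2 ratio of the sums was -0.66 with all libraries and 0.41 without ESCs replicate 2. A difference between the groups was not detectable at this depth.

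The Pramel genes held most of the members' counts, and as a sum they were lower in rfISCs by a smaller factor than Zscan4. The 48 genes summed to 56.1 and 62.9 CPM in the rfISCs libraries and to 150.8 and 154.9 CPM in the ESCs libraries. The groups did not overlap, and the mean was 2.57-fold lower in rfISCs (59.5 ± 4.79 CPM, against 152.8 ± 2.91 CPM in ESCs; SD, n = 2 each). On the TPM scale the means were 36.8 in rfISCs and 89.8 in ESCs. Of the 48 genes, 12 were tested, of which 9 fell, 0 rose and 3 did not pass, while 26.4% of all tested genes were called lower. Of the 12, 7 reached the filter's level in ESCs alone and could only have been found lower. Another 19 genes had no count in any library, and 5 untested genes had 10 counts or more. Whether the sum of 1 family differed from that of another in its response was not tested.

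Pramel13 had the highest TPM of all members in both groups. It had 832 and 962 counts in the rfISCs libraries and 2102 and 2386 counts in the ESCs libraries, or 38.0 and 39.9 CPM against 114.7 and 115.9 CPM. The 2 libraries of each group were close together, and the log2 fold change was -1.56 (SE 0.0696, adjusted p = 2.31e-07 in edgeR's quasi-likelihood test), or 2.96-fold lower. Its mean TPM was 24.6 in rfISCs and 66.1 in ESCs. Of all Pramel counts, Pramel13 held 67.9% and 63.5% in the rfISCs libraries, against 76.1% and 74.9% in the ESCs libraries.

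Pramel12 did not fall with it. It had 271 and 328 counts in the rfISCs libraries, or 12.4 and 13.6 CPM, and 212 and 250 counts in the ESCs libraries, or 11.6 and 12.1 CPM. Both rfISCs libraries were above both ESCs libraries, a pattern seen in 39.0% of tested genes, but the log2 fold change of 0.13 (SE 0.141) did not pass the test (adjusted p = 0.459, edgeR's quasi-likelihood test). Its share of the Pramel counts was 22.1% and 21.6% in the rfISCs libraries, against 7.67% and 7.84% in the ESCs libraries. Without Pramel12 and Pramel13, the other 46 Pramel genes summed to 7.51 ± 2.65 CPM in rfISCs and 25.7 ± 1.61 CPM in ESCs, or 3.42-fold lower (SD, n = 2 each).

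**Figure D4:**
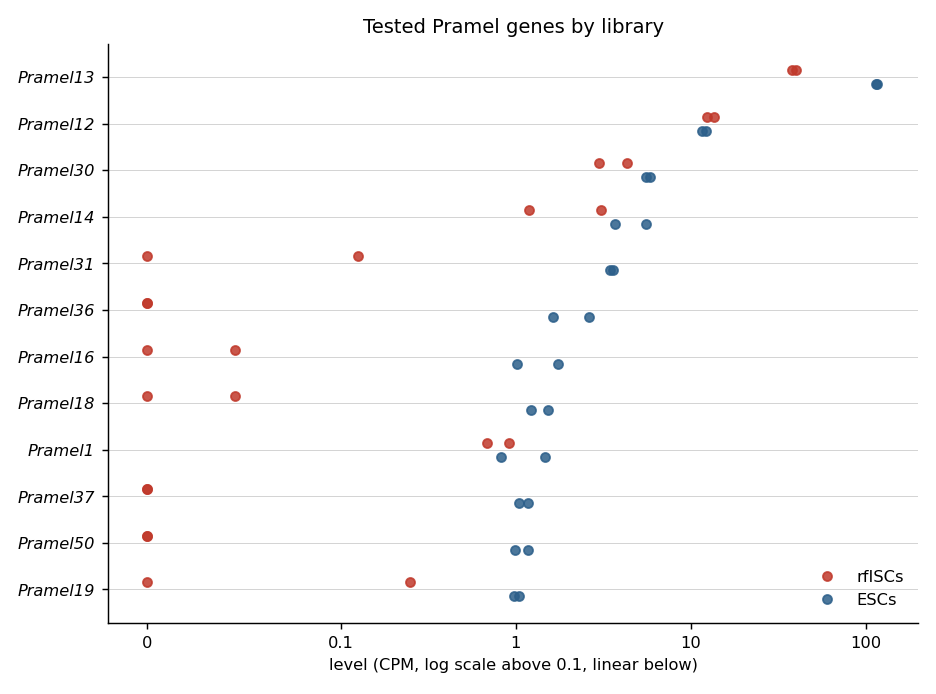
Level of the 12 tested Pramel genes in CPM, on an axis that is logarithmic above 0.1 and linear below it. Points are single libraries, rfISCs above ESCs in each row. Pramel13 and Pramel12 stand highest, the rfISCs points of Pramel12 lie right of its ESCs points, those of Pramel1 overlap with ESCs, and Pramel36, Pramel37 and Pramel50 have both rfISCs points at 0.

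By their RefSeq positions the Pramel genes lie mostly in 2 clusters, with 25 genes on chromosome 4 and 18 on chromosome 5. The sums of the 2 clusters stood in different ratios between the groups. The genes on chromosome 4 summed to 55.6 and 62.3 CPM in the rfISCs libraries and to 145.1 and 148.6 CPM in the ESCs libraries, or 2.49-fold lower. Those on chromosome 5 summed to 0.137 and 0.124 CPM in the rfISCs libraries, from 3 estimated counts in each, and to 5.04 and 5.25 CPM in the ESCs libraries, from 92.3 and 108 estimated counts, or 39.3-fold lower. Most of the chromosome 4 sum was Pramel13 and Pramel12, at means of 38.96 and 12.99 CPM in rfISCs and 115.3 and 11.86 CPM in ESCs. Pramel16, Pramel18 and Pramel31, also on chromosome 4, had ratios of 0.0160, 0.0160 and 0.0185. Pramel1, Pramel12, Pramel13, Pramel14, Pramel19 and Pramel30 there fell less or did not pass. The difference between the clusters was not tested, since the clusters were compared after their values were known.

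The 3 tested genes on chromosome 5 were at 0 rounded counts in both rfISCs libraries and all 3 were called lower, as were 26.4% of all tested genes. All 3 reached the filter's level in ESCs alone, so they could only have been found lower. Pramel36 had 30 and 54 counts in the ESCs libraries, Pramel37 had 19 and 24, and Pramel50 had 18 and 24. Against a floor of 3 counts over the rfISCs group, they were at least 33.1-fold, 16.9-fold and 16.6-fold lower. All 3 had counts in each ESCs library. Pramel45, also on chromosome 5, had 0 and 0 counts in the rfISCs libraries, against 19 and 1 counts in the ESCs libraries, so that nearly all of its reads came from 1 ESCs library, and it was not tested. Of the 18 genes on chromosome 5, 8 had no count in any library.

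The upstream sequences of Pramel37 and Pramel50 are printed as an instance of 2 loci that cannot be told apart, with those of Pramel31 and Pramel13 on chromosome 4 for comparison. Capitals mark TATAAA, which is not in the Pramel13 window.
Pramel37, chr5:94070546-94070643, minus strand: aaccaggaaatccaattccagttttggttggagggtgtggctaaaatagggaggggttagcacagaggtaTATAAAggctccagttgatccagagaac
Pramel50, chr5:95736174-95736271, minus strand: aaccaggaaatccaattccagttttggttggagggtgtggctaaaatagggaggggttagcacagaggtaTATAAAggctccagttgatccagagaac
Pramel31, chr4:144357826-144357925, plus strand: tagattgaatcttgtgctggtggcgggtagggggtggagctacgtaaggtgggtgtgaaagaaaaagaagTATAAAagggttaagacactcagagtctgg
Pramel13, chr4:144408465-144408564, minus strand: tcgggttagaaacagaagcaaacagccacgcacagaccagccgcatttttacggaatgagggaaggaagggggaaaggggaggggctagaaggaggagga
Pramel37 and Pramel50 were identical over all 98 bases, while Pramel31 matched Pramel37 at 37 of 98 bases when aligned on the hexamer.

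On chromosome 4, 9 genes were tested, of which 6 fell and 3 did not pass, while 26.4% of all tested genes were called lower. Of the 9, 4 reached the filter's level in ESCs alone and could only have been found lower. Pramel31, Pramel16 and Pramel18 were nearly absent from rfISCs. Pramel31 had 0 and 3 counts in the rfISCs libraries and 63 and 74 counts in the ESCs libraries. Its ratio was 0.0185, with an exact 95% interval of 0.00377 to 0.0553. Pramel16 had 1 and 0 counts in the rfISCs libraries, against 32 and 21 counts in the ESCs libraries. Pramel18 had 1 and 0 counts in the rfISCs libraries and 28 and 25 counts in the ESCs libraries. For Pramel16 and for Pramel18 the ratio was 0.0160, with an exact 95% interval of 0.000397 to 0.0929. Pramel19 had 0 and 6 counts in the rfISCs libraries, against 19 and 20 counts in the ESCs libraries, a log2 fold change of -2.90 (adjusted p = 0.0175, edgeR's quasi-likelihood test). Without rfISCs replicate 1, in which it had no read, its log2 fold change was -1.98 and the call was lost (adjusted p = 0.116). Without rfISCs replicate 1 and then without rfISCs replicate 2, the fitted log2 fold change was -4.75 and -9.16 for Pramel31, against -5.64 with all libraries, -7.86 and -4.74 for Pramel16, against -5.64, and -7.85 and -4.73 for Pramel18, against -5.63, and each stayed called. For Pramel19 it was -7.36 without rfISCs replicate 2. The more negative value of each gene was fitted against a single rfISCs library with no read, so its size depends on the prior count.

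Pramel14 and Pramel30 were intermediate. Pramel14 had 26 and 74 counts in the rfISCs libraries and 68 and 114 counts in the ESCs libraries, a log2 fold change of -1.11 (adjusted p = 0.0458, edgeR's quasi-likelihood test). All of its counts were given to 1 assembled transcript, while its Ensembl transcript had 0 counts in every library. In CPM, rfISCs replicate 2 was just below ESCs replicate 1, at 3.07 against 3.71. The call was lost without rfISCs replicate 1 (adjusted p = 0.203) and without ESCs replicate 2 (adjusted p = 0.0687), and without rfISCs replicate 2 the log2 fold change was -1.96. Pramel30 had 65 and 104 counts in the rfISCs libraries, against 102 and 120 counts in the ESCs libraries, a log2 fold change of -0.64 (SE 0.245) that missed the threshold (adjusted p = 0.0513, edgeR's quasi-likelihood test). It passed without ESCs replicate 1 (adjusted p = 0.0337) and without rfISCs replicate 2 (adjusted p = 0.0269). Pramel1, whose groups overlapped, had 15 and 22 counts in the rfISCs libraries and 15 and 30 counts in the ESCs libraries (adjusted p = 0.414). Among untested genes of this cluster, Pramel20 had 1 and 0 counts in rfISCs and 6 and 8 counts in ESCs, and Pramel24 had 1 and 2 counts in rfISCs and 7 and 3 counts in ESCs.

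Pramel6 and Pramel7, the pair on chromosome 2 best known from naive cells, were scarce in both groups. Pramel7 had 3 and 10 counts in the rfISCs libraries and 4 and 11 counts in the ESCs libraries, so its groups overlapped. Pramel6 had 0 and 0 counts in the rfISCs libraries, against 6 and 5 counts in the ESCs libraries, at least 4.33-fold lower against a floor of 3 counts over the rfISCs group. Neither passed the filter. On the TPM scale the pair summed to 0.12 and 0.80 in the rfISCs libraries and to 1.61 and 1.75 in the ESCs libraries, against a Pramel13 mean of 24.6 in rfISCs and 66.1 in ESCs.

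Reads of many of these genes can be assigned to more than 1 gene. Each tested gene was matched to its longest transcript in the GENCODE M21 annotation, and the share of its 100-base windows found without mismatch in a transcript of another gene was counted. The share was 100% for Pramel36, Pramel37 and Pramel50, and 23.4% to 89.5% over the 9 Zscan4 genes, highest in Zscan4f and lowest in Zscan4-ps1. Pramel14 and Pramel30 shared 56.4% and 56.6% with each other. Among Usp17l genes it was 32.3% for Usp17lc and 3.83% for Usp17la. It was 0% for Pramel1, Pramel12, Pramel13 and Tmem92. For the others the value of a single copy is uncertain, since shared reads were divided by a tool that the sources used here do not give. For Zscan4b, Zscan4d, Zscan4-ps2, Zscan4-ps3 and Pramel14 the matched transcript had 0 counts in every library. The share does not describe the assembled transcripts of these genes that were given counts, since their sequence was not examined. Some windows were also shared with annotated genes outside the family names, such as Gm45551 for Zscan4 and Gm5053 for Usp17l, so the sums over families carry part of this uncertainty. Whether counting used strand is not given either, so Pramel13os, an antisense gene at Pramel13 with 1 estimated count in each ESCs library and none in rfISCs, is uncertain.

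**Figure D5:**
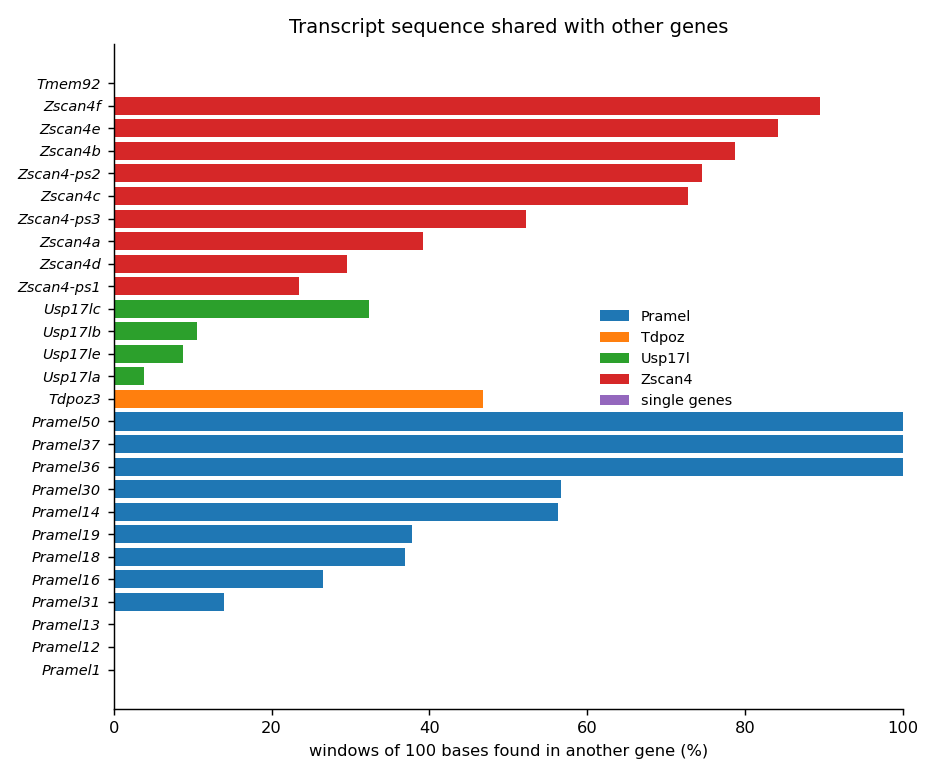
Share of 100-base windows found in a transcript of another gene, in percent, coloured by family. Windows come from the longest matched GENCODE M21 transcript of each tested member. Pramel36, Pramel37 and Pramel50 reach 100%, the Zscan4 genes range from 23.4% to 89.5%, and Tmem92, Pramel1, Pramel12 and Pramel13 are at 0%.

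Motifs were counted on both strands in the 250 bases before the start of 32851 RefSeq promoters on GRCm38.p6, of which 56 windows belonged to 54 member genes. TATAAA was in 19 member windows and in 12.4% of all promoters. Of the 14 genes called lower that had a window, 9 held it: Zscan4b, Zscan4c, Zscan4d, Zscan4f, Usp17lb, Usp17lc, Pramel31, Pramel37 and Pramel50. Members with near-identical promoters are not independent instances of a motif. The sites TGATT and AATCA with 1 base between them, a motif known for DUX, were in 0 member windows and in 0.0304% of all promoters. TTCCNGGAA, a motif known for STAT factors, was in 1 member window, that of Duxf3, and in 0.913% of all promoters. A match describes the letters in the window and is not a bound site.

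Known regulators of the 2-cell-like state changed in both directions. Of 28 such genes, all tested, 12 rose, 8 fell and 8 did not pass, with a median log2 fold change of 0.14. Among all genes tested, 27.3% were called higher and 26.4% lower. Lin28a, an RNA-binding protein gene, was at 479.5 and 466.2 CPM in the rfISCs libraries and at 63.3 and 68.5 CPM in the ESCs libraries, or 7.17-fold higher. Trim28, a co-repressor gene known for silencing retroelements, rose 1.52-fold, with 1025 and 1064 CPM in the rfISCs libraries and 729.4 and 649.2 CPM in the ESCs libraries. Both genes had every rfISCs library above every ESCs library. Myc rose to 4.66 and 5.93 CPM in the rfISCs libraries, against 0.0546 and 1.17 CPM in the ESCs libraries, a log2 fold change of 3.06 that was 2.18 once ESCs replicate 1 was left out and 6.46 once ESCs replicate 2 was.

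The largest falls among these regulators were in Tet2, Prdm14 and Zfp42. Tet2, a gene of an enzyme that oxidises 5-methylcytosine, was at 42.1 and 46.0 CPM in the rfISCs libraries and at 246.2 and 258.6 CPM in the ESCs libraries, or 5.73-fold lower. Prdm14 and Zfp42, genes of naive-state transcription factors, fell 3.24-fold and 3.02-fold. Dppa2 and Dppa4, whose products are known as activators of Dux, were picked out after their values were seen. Dppa2 was at 37.5 and 44.1 CPM in the rfISCs libraries and at 72.3 and 75.5 CPM in the ESCs libraries, a fall of 1.81-fold. Dppa4, at 102.1 and 95.9 CPM in the rfISCs libraries and 92.3 and 82.0 CPM in the ESCs libraries, did not pass (adjusted p = 0.0700, edgeR's quasi-likelihood test).

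A list of other transcripts known from cleavage embryos held both falls and rises. Of 35 listed names, 23 were in the table beside 4 that are members under a newer name, and 13 could be tested, of which 9 fell, 2 rose and 2 did not pass, with a median log2 fold change of -2.37, while 26.4% of all tested genes were called lower. Of the 9, Ubtfl1, Gm21312, Gm6763 and Chit1 reached the filter's level in both libraries of ESCs and not in both of rfISCs, so they could only have been found lower. Ubtfl1 had no count in either rfISCs library and stood at 0.600 and 0.486 CPM in the ESCs libraries. Gm21312 was at 0 and 0.332 CPM in the rfISCs libraries, against 2.29 and 2.43 CPM in the ESCs libraries, and Gm6763 was at 0.960 and 0.0829 CPM in rfISCs, against 5.45 and 6.27 CPM in ESCs. All 3 were lower in both rfISCs libraries than in both ESCs libraries. The rises were in Zfp750, a zinc finger gene, at 7.96 and 6.18 CPM in the rfISCs libraries and 3.27 and 2.04 CPM in the ESCs libraries, and in the double-homeobox gene Duxbl1, at 10.8 and 10.8 CPM in rfISCs and 7.201 and 7.045 CPM in ESCs. Obox1, Obox2, Obox5 and Rfpl4b were at 0 in every library.

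Genes listed as partners of PRAME family proteins or as related genes, among them subunits of the CUL2 ligase and of Polycomb complexes, changed in both directions. Of the 12 in the table, all tested, 3 rose, 3 fell and 6 did not pass, with a median log2 fold change of 0.12, while 53.7% of all tested genes were called in either direction. Cul2, the scaffold of the ligase, fell 1.26-fold, and Rbx1, its RING subunit, rose 1.16-fold. Dnmt1, the maintenance DNA methyltransferase gene, rose 1.30-fold. The Polycomb genes diverged, with Ezh2 1.33-fold higher and Eed and Suz12 1.90-fold and 1.87-fold lower in rfISCs. Uhrf1, the known target of PRAMEL7, was at 560.4 and 563.7 CPM in the rfISCs libraries and 522.9 and 520.1 CPM in the ESCs libraries and did not pass (adjusted p = 0.0657, edgeR's quasi-likelihood test), and it was picked out after its value was seen. Of 14 regulators of the naive state, 13 fell, 0 rose and 1 did not pass, while 26.4% of all tested genes were called lower. Their median log2 fold change was -1.62, with the largest falls in Tbx3 (6.75-fold), Tfcp2l1 (5.88-fold) and Tcl1 (5.15-fold).

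Markers of other cell types also differed between the groups, where 27.3% of all tested genes were called higher and 26.4% lower. The 12 feeder fibroblast markers summed to 25.3 and 21.3 CPM in the rfISCs libraries and to 6.87 and 10.9 CPM in the ESCs libraries. Of 6 tested, 4 rose, 0 fell and 2 did not pass, and Lum, Fap and S100a4 were at 0 in every library. The 12 primitive endoderm markers summed to 21.72 and 20.02 CPM in the rfISCs libraries and to 9.27 and 10.8 CPM in the ESCs libraries, with 3 higher, 1 lower and 3 not passed of 7 tested and Ttr at 0. The 10 trophoblast markers summed to 49.8 and 55.0 CPM in the rfISCs libraries and to 69.2 and 55.4 CPM in the ESCs libraries, with 4 higher and 2 lower of 6 tested and Tpbpa at 0. Most of that sum was Tfap2c, which fell and stood at 33.6 and 37.8 CPM in the rfISCs libraries and at 63.0 and 46.2 CPM in the ESCs libraries, while Gata3, Plac1, Krt7 and Ascl2 rose. The part of such cells in the lower level of the members was not tested.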

How the data were processed

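Total RNA of 2 rfISCs and 2 ESCs libraries was sequenced on an Illumina NovaSeq X Plus, per the labels' protocols. The authors deposited 1 table of 160308 transcripts, of which 17874 were assembled from reads. Per the file headers, the authors gave estimated counts and TPM for each library. The authors also deposited a fold change as a ratio, its log2, and p-values for each transcript, which were not used. Bowtie 0.12.2 and mm9 are named, with no role, in the submitters' processing notes. The sources used here do not give the quantifier, assembler or annotation, so positions come only from RefSeq on GRCm38.p6, which placed 76 of the 79 members. The members and lists were chosen with earlier results of these data known.

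Estimated counts were summed per gene name and rounded. The 3382 transcripts with no gene name, 1.27% and 1.22% of rfISCs counts and 1.58% and 1.62% of ESCs counts, were left out. edgeR 4.0.16 in R 4.3.3 fitted all 4 libraries, with TMM, filterByExpr (minimum count 10) and the group as the model. Benjamini-Hochberg adjustment covered 16355 genes. The SE of a log2 fold change is its size over the square root of F. Ratios of 1 to 3 counts carry exact conditional 95% intervals. Family sums were not tested. Alternatives used DESeq2 1.42.0 and limma 3.58.1. The fits were tested on simulated data. Replicates differed beyond sampling noise (chi-square per degree of freedom 4.55 in rfISCs, 6.71 in ESCs, over genes with at least 20 counts). Every tested member is named, as is each untested one with at least 10 counts and, of each list of regulators, up to 3 rises and 3 falls.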

Additional observations from a re-analysis of the deposited data

How the results depend on the processing

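The count of members called lower, 24 of 27, was 24 with DESeq2's size factors, 23 with library totals, 22 with the DESeq2 test, 29 of 51 with no filter and 19 of 25 with limma on log2(TPM + 1) or log2(TPM + 0.1). It was 16 of 21 with Ensembl transcripts only and 21 to 25 with 1 library left out, and 0 members were called higher in each of these, while 13.3% to 26.4% of all genes were called lower. Replicate numbers are not said to pair libraries, and the replicate 1 minus replicate 2 differences of the groups correlated at 0.0065 over 16355 genes; with the replicate number as a block, 25 members were called lower, Pramel30 among them. Pramel14 lost its call with library totals (adjusted p = 0.0611), the DESeq2 test (0.0532) and limma (0.186), Tdpoz3 with the DESeq2 test (0.0769) and Ensembl transcripts only (0.0533), Pramel19 with Ensembl transcripts only (0.0597) and Zscan4b with limma (0.0548). With Ensembl transcripts only, the log2 fold change of Pramel30 was 0.12 and the log2 ratio of the Usp17l sums -3.10, against -3.79; in both, leaving out the assembled transcripts that hold part of the reads is the change made. With 1 library left out, the log2 ratio ranged from -5.03 to -2.17 for Tdpoz and from -1.34 to 0.41 for Tcstv, which rest on few counts. Limma on TPM moved the median of all genes by 0.161, or 0.169 with the smaller pseudocount, and called 4230 genes higher and 2153 lower, against 4472 and 4311 with edgeR. Low counts in rfISCs limit the size of most falls.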
